A study of Mus musculus with 40 samples.

Results

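The step from fraction C (FrC) to fraction D (FrD) of bone marrow B-cell development was examined in wild-type (WT) mice: the 5 WT FrC libraries against the 5 WT FrD libraries of the same animals, mice 1, 2, 3, 6 and 7, which are 10 of the 40 libraries of the series. The pairs were formed from the mouse number in the library titles. All of these mice were straight chimeras: lethally irradiated CD45.1 hosts that had received WT marrow and were left for 8 weeks, so the controls and the compared cells share irradiation, transplant and host. Donor cells (CD45.1- CD45.2+) were sorted, 100 cells to a library. The FrD gate, which the labels also call late preB, was B220+ CD43- IgM- IgD-; no source used here describes the gate of FrC. The matching step in chimeras of marrow homozygous for P198A, a change in the zinc transporter ZIP7 (gene Slc39a7), served for comparison, with 5 mice. No source used here gives age or sex, and each number is taken to be 1 animal.

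In the Hardy scheme, FrC comes before FrD. As the FrC gate is not described, it is not known how many of the FrC cells were early, large pre-B cells. Early, large pre-B cells carry the pre-B-cell receptor, in which an immunoglobulin heavy chain pairs with the surrogate light chain. That light chain is made of lambda5 (Igll1) and VpreB (Vpreb1). The receptor together with interleukin-7 drives cell division through MYC and D-type cyclins. FrD cells are small pre-B cells that leave the cycle, switch the surrogate light chain off, and use the RAG recombinase to rearrange the light chain genes.

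The surrogate light chain genes, Myc, D-type cyclins and part of the glycolysis, nucleotide synthesis and ribosome assembly genes fell in FrD. Rag1, Il2ra, Cd2, 9 of 23 quiescence genes and 11 of 26 pre-B transcription factors took a larger share of the RNA. These counts overlap: Rag1 is among the 9, and Klf2 is among both the 9 and the 11. Among all 10246 tested genes the share called higher was 2.69% and the share called lower 2.05%. The ratio of endogenous to spike-in counts was lower in FrD in each of the 5 mice. Of the 276 genes with a larger share of the FrD RNA, 211 had a smaller amount per spike-in. On that scale no quiescence gene or pre-B transcription factor was called higher. In these lists 9 and 16 were called lower, against 66.6% of all tested genes.

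Promoter elements shared by members of 3 groups described below are shown first: the CHR element (TTTGAA or its reverse complement TTCAAA) of mitotic genes, the E2F element (TTTCGCGC, TTTGGCGC or TTTCCCGC, either strand) of replication genes, and the E-box CACGTG, bound by MYC and its relatives. The sequences are the 250 bases before the start of transcription, from RefSeq on GRCm38.p6, 5′ to 3′ on the gene's strand, with the element in capitals. Cdc20, the activator of the anaphase-promoting complex, lies at chr4:118437344-118437593 on the minus strand and has its CHR element 18 bases before the start. Mcm6, a subunit of the replicative helicase, lies at chr1:128359706-128359955 on the minus strand. It has E2F elements 47, 106 and 110 bases before the start, the last pair overlapping on opposite strands. Bases after this start were found in no GENCODE transcript of Mcm6, unlike those of Cdc20 and Atic, so its distances hold for the RefSeq start only. Atic, which completes purine ring synthesis, lies at chr1:71556906-71557155 on the plus strand with its E-box 7 bases before the start; it and the E-box were chosen after values were seen.
Cdc20: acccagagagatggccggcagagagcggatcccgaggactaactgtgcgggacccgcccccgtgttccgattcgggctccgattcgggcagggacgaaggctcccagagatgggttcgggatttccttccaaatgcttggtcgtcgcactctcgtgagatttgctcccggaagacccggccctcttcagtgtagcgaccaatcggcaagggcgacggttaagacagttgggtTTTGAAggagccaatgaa
Mcm6: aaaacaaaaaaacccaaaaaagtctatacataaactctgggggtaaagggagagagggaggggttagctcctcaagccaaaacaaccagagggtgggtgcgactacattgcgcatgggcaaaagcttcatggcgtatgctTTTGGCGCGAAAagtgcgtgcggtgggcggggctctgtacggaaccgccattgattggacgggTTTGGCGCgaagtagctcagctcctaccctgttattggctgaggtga
Atic: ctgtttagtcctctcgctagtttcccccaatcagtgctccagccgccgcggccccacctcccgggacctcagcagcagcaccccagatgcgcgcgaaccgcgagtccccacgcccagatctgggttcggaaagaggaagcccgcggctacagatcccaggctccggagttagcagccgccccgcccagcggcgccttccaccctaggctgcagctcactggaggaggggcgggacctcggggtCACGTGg
In windows of 300 bases (250 before and 50 after the start), the CHR element was found in 31 of 42 promoters of the G2/M list (73.8%), in 12.2% of the 8137 promoters of tested genes and in 18.1% of all 27025 promoters. The E2F element was found in 16 of 37 promoters of the G1/S list (43.2%), against 3.96% of tested genes and 1.91% of all promoters. The E-box was in 4 of 21 nucleotide synthesis promoters (19%), in 6 of 32 ribosome biogenesis promoters (18.8%) and in 28 of 167 promoters of genes that fell (16.8%), against 10.6% of tested genes and 7.24% of all promoters. Of the same 167 promoters 25 held the CHR element (15%) and 12 the E2F element (7.19%), against 12.2% and 3.96% of tested genes. In the 221 promoters of genes that rose, the CHR, E2F and E-box shares were 12.2%, 1.36% and 7.69%. A match is a description of these letters and no evidence of binding.

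Counts of endogenous genes ranged from 6372181 to 24638528 per library, and both ends of that range were FrD libraries. The B-lineage factor Pax5 was present in all 10, between 80.4 and 399.9 CPM (counts scaled to a common library size by the TMM method). One library stood apart, FrD of mouse 3. In it 26.7% of detected genes had only 1 to 9 counts, against 7.20% to 13.9% in the other 9, and its correlation with them (Pearson, log2 CPM, across genes) did not exceed 0.810. It also held neutrophil granule RNA, with S100a8 at 47060 CPM and S100a9 at 38390 CPM, where no other library exceeded 119 CPM of either; the summed granulocyte and monocyte list (18 of 18 genes in the table) reached 115900 CPM there and 65.9 to 8865 CPM in the rest. The summed erythroid list (12 of 13 genes in the table) stood at 47700 CPM in that library and at 156 to 10390 CPM in the others. Counts of members are therefore given with and without mouse 3. The library titles end in a code whose meaning is not stated; no ending was shared by FrC and FrD, so what it stands for and the fraction cannot be told apart.

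The ratio of endogenous to spike-in RNA was lower in FrD. On the log2 scale, the counts of endogenous genes over those of the ERCC spike-in, an RNA mix added with the lysis buffer, were at 11.09, 11.14, 11.59, 9.68 and 9.71 in FrC of mice 1, 2, 3, 6 and 7, and 8.95, 8.77, 9.54, 7.82 and 6.98 in FrD of the same mice. Each mouse was lower in FrD, by 2.14, 2.38, 2.05, 1.86 and 2.73, and the groups did not overlap, although mice 6 and 7 were the lowest in both. The mean difference was -2.23 ± 0.33 (SD, n = 5), 4.70-fold, with a two-sided exact paired permutation p of 0.062, the smallest that 5 pairs allow. Without the 3 most abundant spike-ins the mean difference was -1.82, and mouse 3 showed only -0.33. Fewer cells in a well and less RNA per cell cannot be told apart here.

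Fewer genes were detected as well. FrC libraries held 11636, 11460, 11474, 11658 and 11614 genes with at least 1 count, and FrD libraries of the same mice 11014, 10889, 10329, 10813 and 10482. No FrD library reached the lowest FrC library. The mean difference was -863 ± 272 genes (SD of differences, n = 5; exact paired permutation p = 0.062), and at an equal depth of 6372181 counts it was -1145 genes. The 50 highest genes took 13.8% ± 0.360 of the counts in FrC and 18.5% ± 3.87 in FrD (SD, n = 5), with mouse 3 the highest at 25.3%.

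**Figure D1:**
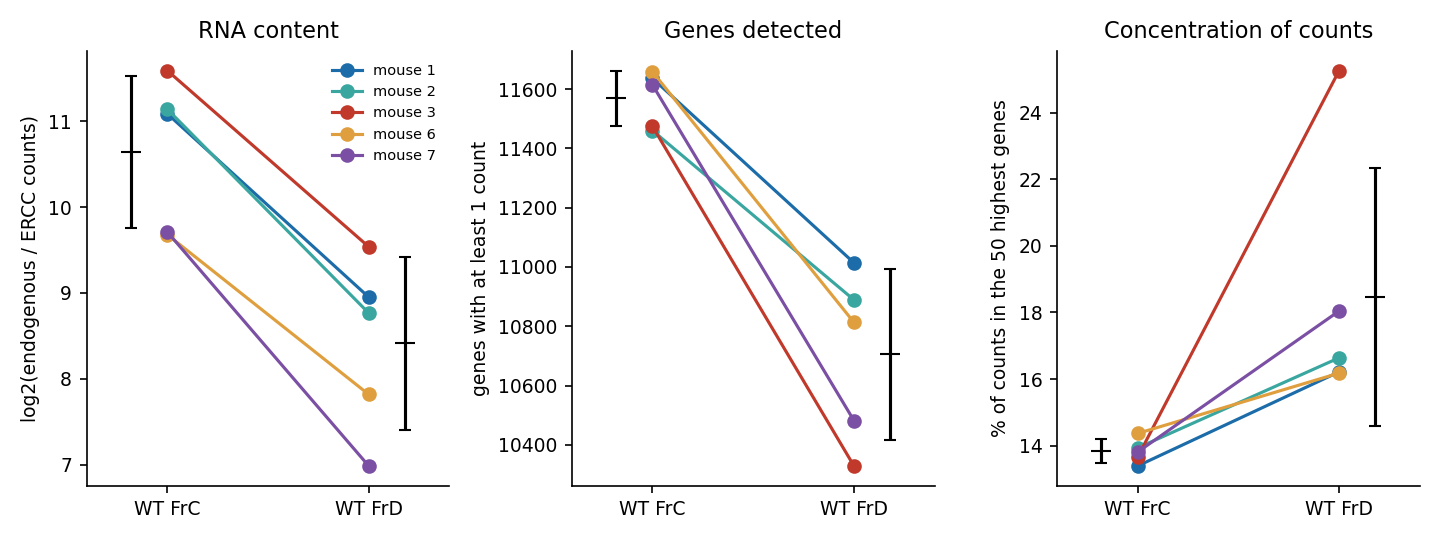
Library measures in WT FrC and FrD, 1 line per mouse: log2 of endogenous over ERCC counts, the number of genes with at least 1 count, and the percent of counts in the 50 highest genes. Black marks are the mean and SD of 5 libraries; axes do not start at 0. The ratio and the gene number were lower in FrD in 5 of 5 mice, and FrD of mouse 3 stood highest in the panel on the right at 25.3%.

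Across the transcriptome, 276 of 10246 tested genes were higher in FrD (2.69%) and 210 were lower (2.05%), 4.74% in either direction, at an adjusted p under 0.05 (edgeR quasi-likelihood test with mouse as a block, Benjamini-Hochberg). These shares are the background for every count of list members below. Among genes called higher the median log2 fold change was 1.71. Among genes called lower it was -3.15, and 27 of the 210 had no count in any FrD library; the 183 with counts had a median of -2.46. FrC and FrD values did not overlap for 251 of the 276 and for 205 of the 210, against 11.8% of all tested genes. Without mouse 3 the test called 819 genes higher (7.91%) and 622 lower (6.01%), and 481 of the 486 original calls were among them. The other mice moved the counts the other way: 54 higher and 23 lower without mouse 1, 55 and 47 without mouse 2, 70 and 53 without mouse 6, and 72 and 48 without mouse 7. Of the 84 called genes named in the text, 51, 50, 44 and 45 were not called without mouse 1, 2, 6 and 7.

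Both genes of the surrogate light chain fell. Igll1 (lambda5; chr16:16860671-16863985, minus strand, GRCm38) was at 2154, 2898, 2256, 2593 and 1891 CPM in FrC of mice 1, 2, 3, 6 and 7, and at 272, 153, 9.09, 273 and 23.2 CPM in FrD. All FrD libraries lay far below all FrC libraries, and mice 3 and 7 were the lowest. Igll1 fell by 4.04 ± 0.81 on the log2 scale (SE; edgeR adjusted p = 0.0177), and its value was -4.83 without mouse 6. Its partner Vpreb1 (chr16:16868403-16870843, minus strand) was at 878, 1227, 920, 1356 and 923 CPM in FrC and at 97.9, 56.6, 48.2, 180 and 38.9 CPM in FrD. The groups did not overlap, and Vpreb1 fell by 3.66 ± 0.44 (edgeR adjusted p = 0.00109). Vpreb1 has a close copy, Vpreb2 (-4.95 ± 1.43, edgeR adjusted p = 0.0777), and how reads were divided between the copies is not known.

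The signalling chains of the receptor differed from the surrogate light chain. Cd79b, the Ig-beta signalling chain, went from 1339, 1460, 1328, 1607 and 1450 CPM in FrC to 6677, 5801, 2917, 6372 and 7360 CPM in FrD, with mouse 3 the lowest FrD library and no overlap. Its log2 fold change was 2.02 ± 0.24 (edgeR adjusted p = 0.00105), but per spike-in the value was -0.55 (edgeR adjusted p = 0.106). Cd79a, the Ig-alpha chain, was higher in 4 of 5 mice and at 943 CPM in FrD of mouse 3; it did not pass the test (1.16 ± 0.43, edgeR adjusted p = 0.169) and passed without mouse 3 (1.43, edgeR adjusted p = 0.00022). Vpreb3, which sits with the receptor chains in the endoplasmic reticulum, rose by 1.57 ± 0.17 (edgeR adjusted p = 0.0008; -0.92 per spike-in). Of the 12 receptor chain and immunoglobulin constant genes listed, 6 are in the table, all 6 were tested, 2 rose and 2 fell.

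Of 24 pre-receptor and B-cell receptor signalling genes 3 rose and none fell, with a median log2 fold change of 0.19 against 0.08 for all tested genes; without mouse 3, 4 rose and 2 fell. The adaptor Blnk, which links the receptor to phospholipase C, rose by 1.48 ± 0.22 (edgeR adjusted p = 0.00385). The Src-family kinase Lyn rose by 1.39 ± 0.26 and Bcl10, an adaptor of NF-kappaB signalling, by 1.51 ± 0.35. Per spike-in these 3 genes were below 0, at -1.03, -1.10 and -0.86.

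Rag1, the catalytic subunit of the recombinase, rose. Rag1 (chr2:101638282-101649501, minus strand) was at 11.9, 29.9, 11.4, 23.6 and 39.6 CPM in FrC and at 229, 352, 331, 205 and 305 CPM in FrD. No library overlapped, and mouse 3 was not set apart. Its log2 fold change was 3.67 ± 0.40 (12.8-fold; edgeR adjusted p = 0.0008), and per spike-in it was 1.23 (edgeR adjusted p = 0.0533). Rag2, the second subunit, was at 35.8, 105, 67.7, 157 and 91.9 CPM in FrC and at 321, 304, 14.8, 339 and 353 CPM in FrD. Mouse 3 alone was lower in FrD, and Rag2 did not pass the test (1.59 ± 0.65, edgeR adjusted p = 0.21); without mouse 3 its value was 1.82 (edgeR adjusted p = 0.0058). Of 16 V(D)J recombination genes 3 rose and none fell, and without mouse 3, 4 rose. Xrcc6, the Ku70 end-binding protein, rose by 1.37 ± 0.22, and Polm, a polymerase of end joining, by 2.07 ± 0.47; per spike-in they were at -1.12 and -0.36. Dntt, which adds untemplated bases in pro-B cells, was at 31.4, 112, 89.5, 653 and 256 CPM in FrC and at 0.251, 21.0, 1.14, 80.3 and 14.5 CPM in FrD. It was lower in FrD in each mouse, but the groups overlapped and it did not pass (-3.24 ± 1.01, edgeR adjusted p = 0.103).

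Some surface genes rose, among them the small pre-B markers Il2ra and Cd2. Il2ra, the CD25 chain, was at 17.3, 16.3, 18.9, 10.7 and 10.6 CPM in FrC and at 181, 228, 84.5, 154 and 244 CPM in FrD, without overlap. Its log2 fold change was 3.62 ± 0.39 (12.3-fold; edgeR adjusted p = 0.0008; 0.98 per spike-in). Cd2, an adhesion receptor, was at 33.3, 20.1, 31.1, 36.3 and 31.1 CPM in FrC and at 462, 413, 21.4, 336 and 665 CPM in FrD. Mouse 3 stayed at the FrC level while the other 4 mice were above all FrC libraries, and Cd2 passed the test (3.63 ± 0.67, edgeR adjusted p = 0.0121; 0.95 per spike-in). Ly6d, a lymphoid surface protein, was at 418, 391, 484, 427 and 451 CPM in FrC and at 3948, 3549, 2283, 2887 and 5521 CPM in FrD (3.06 ± 0.25, edgeR adjusted p = 0.000266; 0.44 per spike-in). Of 15 surface markers 4 rose and none fell, the fourth being the hyaluronan receptor Cd44 (1.32 ± 0.28, but -1.17 per spike-in), and without mouse 3, 9 rose.

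Markers that the Hardy scheme uses to tell the fractions apart were less clear in the RNA. Enpep, which encodes BP-1, was at 79.2, 89.9, 70.4, 145 and 58.1 CPM in FrC and at 18.3, 75.1, 12.5, 24.0 and 20.2 CPM in FrD. Each mouse was lower in FrD, mouse 2 stayed within the FrC range, and the test was not passed (-1.60 ± 0.55, edgeR adjusted p = 0.137). Spn, which encodes CD43, the antigen absent from the FrD gate, was at 28.2, 29.7, 30.5, 42.9 and 44.5 CPM in FrC and at 5.98, 28.5, 147, 31.1 and 21.8 CPM in FrD. Mouse 3 was the only mouse higher in FrD; the value was 0.44 ± 0.73 with it (edgeR adjusted p = 0.81) and -0.75 without it (edgeR adjusted p = 0.366). Kit, the stem cell factor receptor of pro-B cells, was at most 15.5 CPM in FrC and at 23.6 CPM in FrD of mouse 3 (0.13 ± 2.19, edgeR adjusted p = 0.985). Of 13 tested pro-B and progenitor genes (17 listed) none rose and 2 fell, Igll1 and Vpreb1; without mouse 3, 3 rose and 3 fell among 15.

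Myc and the D-type cyclins Ccnd2 and Ccnd3 fell. Myc (chr15:61985391-61990374, plus strand) was at 400.3, 246, 310, 295 and 159 CPM in FrC and at 0.376, 15.5, 1.14, 4.40 and 0.134 CPM in FrD. The lowest FrC library was far above the highest FrD library, that of mouse 2. Myc fell by 6.15 ± 1.11 (edgeR adjusted p = 0.0112), and its value was -7.61 without mouse 2. Ccnd3, the D-type cyclin that pre-B cell expansion depends on, was at 1754, 1397, 2084, 2049 and 1332 CPM in FrC and at 519, 590, 559, 489 and 371 CPM in FrD, and fell by 1.78 ± 0.21 (edgeR adjusted p = 0.00102). Ccnd2 was at 608, 408, 606, 480 and 394 CPM in FrC and at 22.6, 2.00, 124, 37.5 and 5.05 CPM in FrD, with mouse 3 the highest of the FrD libraries. It fell by 3.74 ± 0.91 (edgeR adjusted p = 0.0416), and its value was -4.82 without mouse 3. Cdk6, the kinase partner of these cyclins, fell by 2.98 ± 0.33 (edgeR adjusted p = 0.0008). Of 14 tested genes of the MYC and D-type cyclin list (15 listed), none rose and these 4 fell, and the list's median was -0.64; without mouse 3, 1 rose and 6 fell.

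The interleukin-7 pathway was split. Of 16 tested genes (18 listed) 3 fell, Myc, Ccnd2 and Ccnd3, and 2 rose. The kinase Pim1 rose by 2.80 ± 0.51 (edgeR adjusted p = 0.0113), with FrD of mouse 3 at 374 CPM and the other FrD libraries at 77.1 to 139 CPM and a value of 2.06 without mouse 3. Socs1, a feedback inhibitor of cytokine receptors, rose by 2.95 ± 0.57 (edgeR adjusted p = 0.0158). Il7r, the receptor itself, was at 273, 268, 194, 320 and 373 CPM in FrC and at 673, 566, 132, 914 and 690 CPM in FrD. It was higher in 4 of 5 mice and did not pass (1.05 ± 0.40, edgeR adjusted p = 0.172); without mouse 3 it passed at 1.21 (edgeR adjusted p = 0.000852), and per spike-in it was at -1.48.

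**Figure D2:**
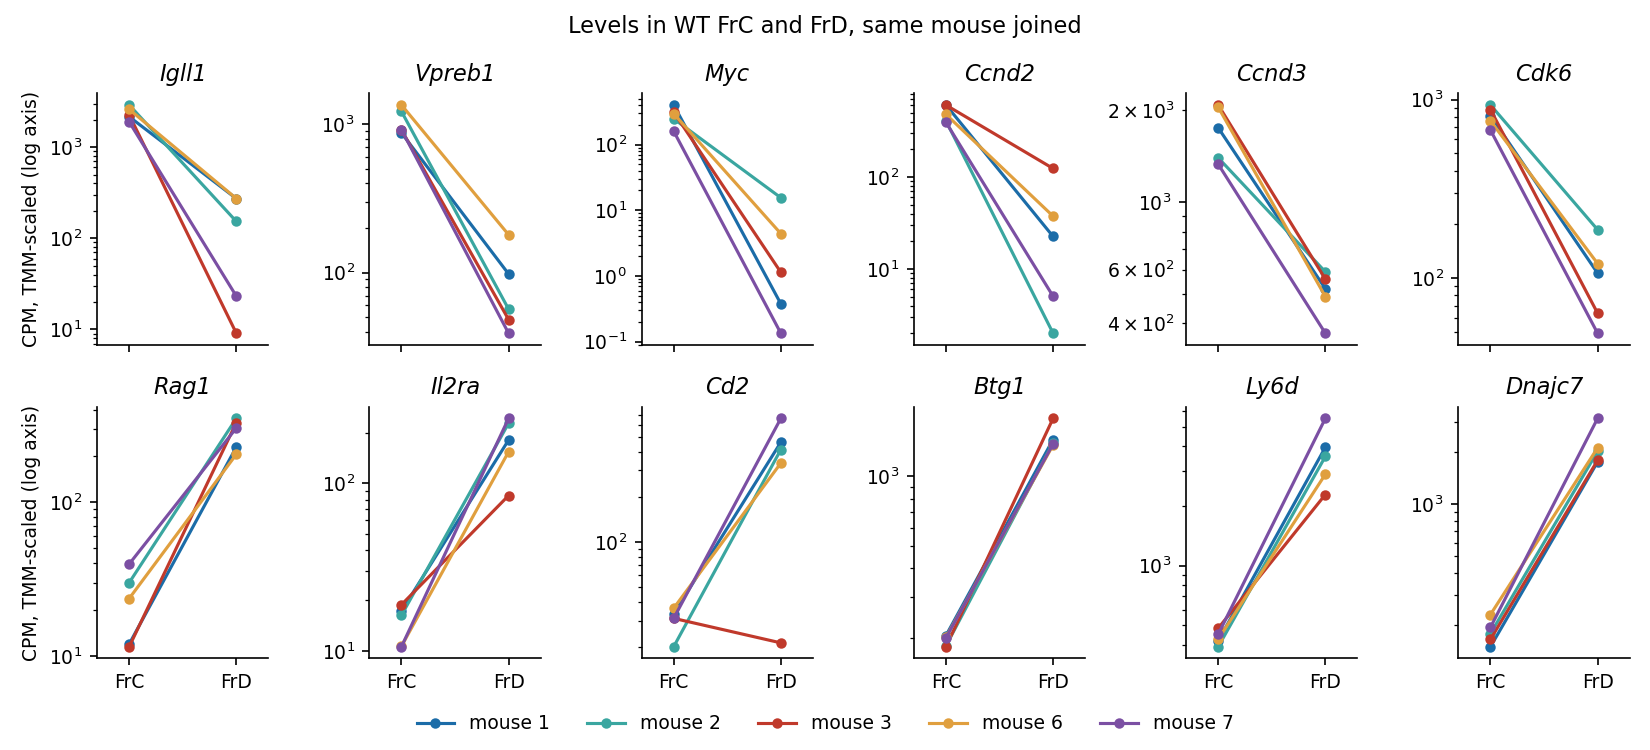
Levels of 12 genes in WT FrC and FrD in CPM on a log axis, 1 line per mouse; each panel has its own range. Igll1, Vpreb1, Myc, Ccnd2, Ccnd3 and Cdk6 were lower in FrD in 5 of 5 mice, and Rag1, Il2ra, Btg1, Ly6d and Dnajc7 higher in 5 of 5; Cd2 was higher in 4 of 5, the exception being mouse 3.

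Few of the cell cycle genes passed the test. Of 43 G1/S and replication genes 3 fell and none rose, with a median of -0.61, and 35 of 43 values were below 0; without mouse 3, 15 fell and the median was -1.03. Mcm6, whose promoter is shown above, was at 712, 393, 662, 842 and 481 CPM in FrC and at 246, 304, 211, 288 and 299 CPM in FrD, and fell by 1.20 ± 0.25 (edgeR adjusted p = 0.0205). The helicase subunit Mcm3 fell by 1.55 ± 0.39 and the clamp loader subunit Rfc5 by 1.28 ± 0.33. Of 50 G2/M genes 2 fell and none rose, with a median of -0.37 and 40 of 50 below 0; without mouse 3, 12 fell. Cdc20 was at 607, 356, 647, 848 and 457 CPM in FrC and at 214, 183, 202, 131 and 275 CPM in FrD, and fell by 1.53 ± 0.29 (edgeR adjusted p = 0.0128). The mitotic kinase Plk1 fell by 1.47 ± 0.31. Mki67, the proliferation antigen Ki-67, was at 603 to 878 CPM in FrC and at 493, 365, 2958, 367 and 356 CPM in FrD. Its value was 0.34 ± 0.61 with mouse 3 (edgeR adjusted p = 0.828) and -0.86 without it (edgeR adjusted p = 0.00863). Top2a, the mitotic topoisomerase, was at -0.36 ± 0.27 (edgeR adjusted p = 0.528), and at -0.65 without mouse 3 (edgeR adjusted p = 0.0415).

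Of 30 tested histone genes (31 listed), 2 rose and none fell, with a median of 0.88; without mouse 3, 4 rose. The genes were the variant histones H2afv (0.83 ± 0.19) and H3f3a (1.18 ± 0.28, at 987 CPM in FrD of mouse 3, within the FrC range), both of which have related copies. Per spike-in they were at -1.65 and -1.39, and 13 of the 30 histone genes were called lower, against 66.6% of all tested genes. The libraries were primed on poly(A) tails, which most replication-dependent histone mRNAs lack.

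Of 23 genes of nucleotide and one-carbon synthesis 9 fell and none rose, with a median of -1.56 and 21 of 23 below 0; without mouse 3, 14 fell and 1 rose. Atic was at 28.6, 54.2, 46.1, 27.0 and 28.0 CPM in FrC and at 7.95, 2.83, 6.59, 0.989 and 0.582 CPM in FrD, without overlap, and fell by 3.75 ± 0.73 (edgeR adjusted p = 0.0161). Impdh1, which commits purines to guanine nucleotides, fell by 4.14 ± 0.89, Cad, which starts pyrimidine synthesis, by 4.51 ± 0.99, and the serine hydroxymethyltransferase Shmt1 by 4.75 ± 1.06. Impdh1 was at -4.76 without mouse 3, Cad at -3.91 without mouse 1 and -5.47 without mouse 6, and Shmt1 at -6.53 without mouse 6. A pair of serine synthesis enzymes listed with the integrated stress response fell too, Phgdh by 3.09 ± 0.47 (edgeR adjusted p = 0.00484) and Psat1 by 1.47 ± 0.26; they were the only 2 called of 12 tested in that list (without mouse 3, 2 rose and 4 fell), which is named for a stress response although these enzymes make serine.

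Of 36 ribosome biogenesis genes 8 fell and none rose, with a median of -1.06 and 32 of 36 below 0; without mouse 3, 11 fell. Npm1, nucleophosmin, was at 2196, 2256, 2266, 1449 and 1720 CPM in FrC and at 774, 623, 1173, 680 and 573 CPM in FrD, without overlap and with mouse 3 the highest FrD library. It fell by 1.36 ± 0.22 (edgeR adjusted p = 0.00641). Nucleolin (Ncl) fell by 1.24 ± 0.23, the nucleolar GTPase Gnl3 by 2.51 ± 0.50 and Mybbp1a by 2.75 ± 0.54. Genes of the ribosome's own proteins gave an unsettled picture: 2 of 82 fell, Rps2 (-1.40 ± 0.35) and Rpl3 (-1.11 ± 0.28), both with many processed copies in the genome. Their median was 0.13 with mouse 3, whose FrD library gave them a summed 146400 CPM against 32830 to 63160 CPM in the other 9, and -0.49 without it, with 21 lower.

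Of 17 tested glycolysis genes (19 listed) 6 fell and none rose, with a median of -1.73 and 14 of 17 below 0; without mouse 3, 8 fell. Ldha, lactate dehydrogenase A, was at 2702, 2484, 3273, 1848 and 1600 CPM in FrC and at 518, 460.5, 84.1, 449 and 473 CPM in FrD. Mouse 3 was the lowest FrD library, and Ldha fell by 2.56 ± 0.43 (edgeR adjusted p = 0.00859). Triose phosphate isomerase (Tpi1) fell by 2.19 ± 0.24, pyruvate kinase (Pkm) by 2.21 ± 0.32 and Gapdh by 1.85 ± 0.39. Of 56 oxidative phosphorylation genes 2 fell, the ATP synthase subunits Atp5a1 (-1.14 ± 0.20) and Atp5b (-1.22 ± 0.25), and the median was -0.15; without mouse 3, 8 fell. No gene of the cholesterol synthesis list (21 tested) or of the unfolded protein response list (20 tested) passed in the edgeR test. At an unadjusted p under 0.05, 3 cholesterol genes were lower, as with DESeq2 and voom, and 3 unfolded protein response genes were higher and 3 lower (2 and 1 with DESeq2, 1 and 1 with voom); without mouse 3, 2 of the latter rose and 3 fell.

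Quiescence genes took a larger share of the RNA. Of 23 FOXO targets and quiescence genes 9 rose and none fell, all 23 values were above 0, and the median was 1.35. Without mouse 3, 14 rose. The 9 include Rag1, Klf2 and S1pr1, which are also counted in other lists here. Btg1, an antiproliferative protein, was at 205, 185, 184, 201 and 201 CPM in FrC and at 1443, 1396, 1781, 1367 and 1381 CPM in FrD. Mouse 3 was the highest, the groups did not overlap, and Btg1 rose by 2.92 ± 0.18 (7.55-fold; edgeR adjusted p = 2.11e-05). Its relative Btg2 rose by 2.58 ± 0.28 and Ypel3, a growth suppressor, by 2.44 ± 0.25. Cdkn1b, the cyclin-dependent kinase inhibitor p27, rose by 1.52 ± 0.29 (edgeR adjusted p = 0.0151). Per spike-in 17 of the 23 were below 0, against 9875 of all 10246 tested genes, and 9 were called lower and none higher, against 66.6% of all genes called lower, with Btg1 at 0.45, Btg2 at 0.11, Ypel3 at -0.05 and Cdkn1b at -1.01.

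Many transcription factors of the pre-B stage rose. Of 26 tested (27 listed), 11 rose and 1 fell, and the same numbers were called without mouse 3. Brwd1, a chromatin reader that opens the kappa light chain locus, was at 14.8, 22.3, 17.7, 22.8 and 22.6 CPM in FrC and at 176, 91.6, 168, 121 and 124 CPM in FrD. The groups did not overlap, and it rose by 2.77 ± 0.34 (edgeR adjusted p = 0.00126). Klf2, a factor of lymphocyte quiescence and trafficking, rose by 3.30 ± 0.58, with mouse 3 the highest at 751 CPM and a value of 2.48 without it. The E protein Tcf12 rose by 1.82 ± 0.25 and the coactivator Pou2af1 by 1.10 ± 0.19, though per spike-in they were at -0.74 and -1.36. Irf4, which promotes light chain recombination, was at 202 to 238 CPM in FrC and at 340 to 423 CPM in FrD, and rose by 0.75 ± 0.18 (edgeR adjusted p = 0.0385; -1.78 per spike-in). Spib rose by 1.73 ± 0.37 (-0.68 per spike-in), again with mouse 3 the highest FrD library at 1769 CPM. Ikzf1 (0.19 ± 0.22), Ikzf3 (0.34 ± 0.41), Bach2 (0.83 ± 0.27) and Bcl6 (0.99 ± 0.80) did not pass the edgeR test, with adjusted p of 0.711, 0.725, 0.118 and 0.575. The gene that fell was Mef2c (-1.18 ± 0.24, edgeR adjusted p = 0.021), a factor of early B-cell growth; it was named as the only one that fell, after values were seen. Per spike-in 24 of the 26 were below 0 and 16 were called lower, where 66.6% of all genes were called lower; the list's share is near that background.

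Genes of later B cells were also represented. Of 31 tested (32 listed), 4 rose and none fell, 28 values were above 0 and the median was 1.15; without mouse 3, 13 rose. Fcrla, an intracellular Fc receptor-like protein, rose by 1.96 ± 0.27 (edgeR adjusted p = 0.00244; -0.61 per spike-in), the activation antigen Cd69 by 3.29 ± 0.56 (2.57 without mouse 3, its highest FrD library at 328 CPM), the complement regulator Cd55 by 2.65 ± 0.54 and the costimulatory receptor Cd40 by 2.97 ± 0.63. Cd40 was at 7.03, 2.28, 14.2, 11.03 and 2.34 CPM in FrC and at 61.3, 54.8, 65.7, 62.5 and 45.6 CPM in FrD, without overlap. Ms4a1, which encodes CD20, was at 605 and 570.2 CPM in FrD of mice 1 and 2 and at 165 to 176 CPM in the other FrD libraries (0.66 ± 0.41, edgeR adjusted p = 0.44). Cd74, the invariant chain, was likewise higher in mice 1 and 2 (2950 and 4395 CPM in FrD) and at 393 CPM in mouse 3 (0.90 ± 0.51, edgeR adjusted p = 0.392). Of 15 tested homing genes (16 listed) 3 rose: S1pr1, the sphingosine phosphate receptor of marrow and lymph node exit, by 2.74 ± 0.50, the retention receptor Cxcr4 by 1.33 ± 0.33 (-1.145 per spike-in), and Cd44; without mouse 3, 5 rose. Per spike-in 13 of the 31 later B-cell genes were called lower and none higher, against 66.6% of all genes called lower.

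Survival and p53 genes moved in part. Pim1, the kinase Pim2 (2.58 ± 0.41, edgeR adjusted p = 0.00582) and the BH3-only protein Bmf (4.90 ± 1.15, edgeR adjusted p = 0.0352; 166 CPM in FrD of mouse 3 against 14.5 to 39.1 CPM in the others, and 4.13 without mouse 3 or 5.601 without mouse 6) were the 3 of 14 tested apoptosis regulators (16 listed) that rose, and none fell; without mouse 3, 4 rose and 1 fell. Of 13 tested p53 targets (16 listed) Mdm2 rose by 1.36 ± 0.26 and Trp53inp1 by 1.32 ± 0.29, with values of -1.18 and -1.215 per spike-in, and 1 gene fell; without mouse 3, 3 rose and 1 fell. The one that fell, Phlda3, a repressor of AKT, was at 8.40, 10.2, 11.9, 3.08 and 8.59 CPM in FrC and had no count in the 5 FrD libraries. With 3 counts summed over the FrD libraries as the floor, its reads were at least 254.9-fold lower. That figure covers the counting of reads only. It is no lower bound for transcripts, since reads carried no molecular identifiers and a few missed transcripts could also give 0 counts. No member of the zinc transporter and metallothionein list (18 tested), the immediate early list (12 tested) or the interferon list (16 tested) passed the edgeR test. At an unadjusted p under 0.05, 2 zinc genes were higher and 1 lower, 2 immediate early genes higher and 1 lower, and 3 interferon genes higher. DESeq2 called 0, 2 and 3 of these lists higher and none lower, and voom called 0, 1 and 2 higher and 2, 1 and 0 lower. Without mouse 3, 1 zinc gene fell, 1 immediate early gene rose and 1 fell, and 3 interferon genes rose. Slc39a7 was at 16.0 to 60.3 CPM in FrC and at 49.8, 25.6, 295, 28.9 and 30.0 CPM in FrD (1.35 ± 0.82, edgeR adjusted p = 0.429), and its value was 0.02 without mouse 3.

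**Figure D3:**
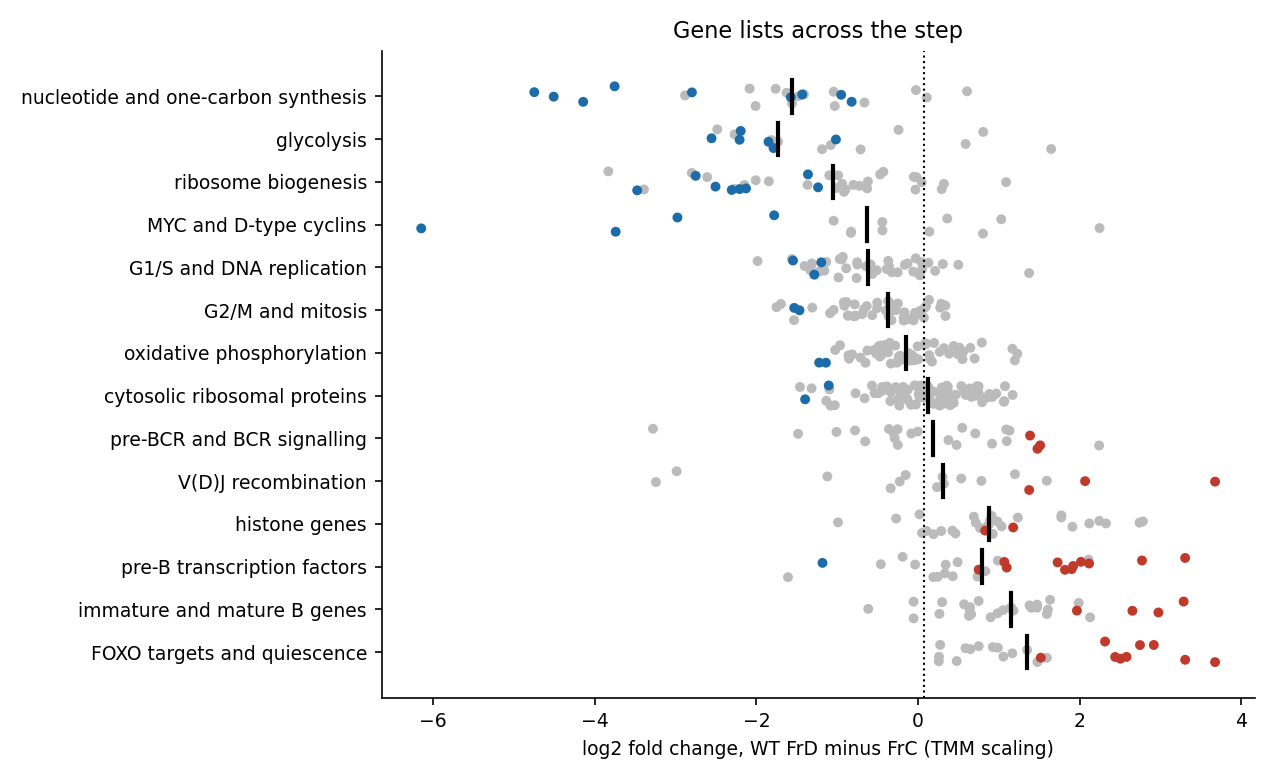
Log2 fold changes (FrD minus FrC, TMM scaling) of the members of 14 gene lists, 1 point per tested gene. Red points were called higher and blue points lower (edgeR, adjusted p under 0.05), grey points were not called, black bars are list medians and the dotted line is the median of all tested genes (0.08). The medians run from -1.73 for glycolysis to 1.35 for FOXO targets and quiescence.

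The genes of lowest p in the step came from outside these lists as well as from them. Dnajc7, a co-chaperone of HSP70 and HSP90 (chr11:100582818-100620168, minus strand), was at 149.8, 178, 165, 229.8 and 194 CPM in FrC and at 1759, 2027, 1796, 2122 and 3141 CPM in FrD. Mouse 7 was the highest and no library overlapped. Dnajc7 rose by 3.55 ± 0.19 (11.7-fold; edgeR adjusted p = 1.17e-05). The others of the 10 were Btg1, Ly6d, Ypel3, the galactosyltransferase B4galt1 (1.88 ± 0.18, -0.63 per spike-in), the NAD-consuming surface enzyme Cd38 (2.99 ± 0.30), the microsomal glutathione transferase Mgst1 (2.96 ± 0.30), the translocon component Sec63 (2.32 ± 0.24, -0.24 per spike-in), the G-protein regulator Rgs2 (2.73 ± 0.28) and Pafah1b3 (1.83 ± 0.19, -0.70 per spike-in).

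Among the falling genes of lowest p were Pa2g4, a growth-regulated nucleolar protein, at 858, 814, 952, 587 and 585 CPM in FrC and at 153, 161, 149, 204 and 131 CPM in FrD (-2.23 ± 0.22, edgeR adjusted p = 0.000786), and C1qbp, a mitochondrial matrix protein (-2.05 ± 0.21). Tpi1, Cdk6, Ccnd3 and Vpreb1, described above, were also among the 10. The other 4 had at most 9 counts over the FrD libraries. Sh2d2a, a T-cell adaptor, had 3190 counts over the FrC libraries and 3 over the FrD libraries, a scaled ratio of 1164 (95% exact interval 398 to 5645, for counting error only). Colq had 3253 and 3 counts (ratio 1186, 406 to 5756), Bok, a BCL2 family member, 1875 and 2 (1026, 284 to 8477), and the pseudouridine synthase Pus7 3492 and 9 (425, 223 to 929).

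Scaling to the spike-in changed the balance of calls. With the ERCC total of each library as its size, 6 of 10246 genes were called higher (0.0586%) and 6826 lower (66.6%, or 66.7% in either direction; edgeR, adjusted p under 0.05), and the median gene was at -2.44. Of the 276 genes with a larger share of the RNA, 65 were above 0 per spike-in and 211 below, 4 were called higher and 108 lower. All 210 genes with a smaller share were called lower. The same cell sort and spike-in volume are assumed for every well, and an error in a spike-in would move all genes of its library together.

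Dnajc7 was called higher on both scales. Its counts per 1000 ERCC counts were 354, 432, 548, 205 and 184 in FrC and 845, 884, 923, 478 and 375 in FrD, higher in each mouse though the groups overlapped (log2 fold change 1.03, edgeR adjusted p = 0.0119). Slfn2, a factor of lymphocyte quiescence, was at 52.7, 15.1, 41.6, 44.9 and 22.9 per 1000 ERCC counts in FrC and at 187, 252, 158, 80.0 and 68.4 in FrD, without overlap (1.93, edgeR adjusted p = 0.00553). Cox6a2, a cytochrome c oxidase subunit also listed as a plasmacytoid dendritic cell marker, was called higher as well (2.08, edgeR adjusted p = 0.0303), with its highest FrD level in mouse 3 at 220.2 CPM. Col5a3 (3.32) and Fn1 (6.88), matrix genes, were the other 2 named by the rule; Fn1 ranged from 0.671 to 97.5 CPM in FrD and missed the TMM-scaled test (edgeR adjusted p = 0.0663). With 1 of the 5 mice left out at a time, Slfn2 was called higher per spike-in in 5 of 5 fits, Dnajc7 and Col5a3 in 2, and Cox6a2 and Fn1 in 1. Without mouse 3 the values were 1.22 for Cox6a2 and 1.52 for Col5a3, neither called (edgeR adjusted p = 0.0865 and 0.208); Fn1 ran from 5.43 without mouse 2 to 9.59 without mouse 7.

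**Figure D4:**
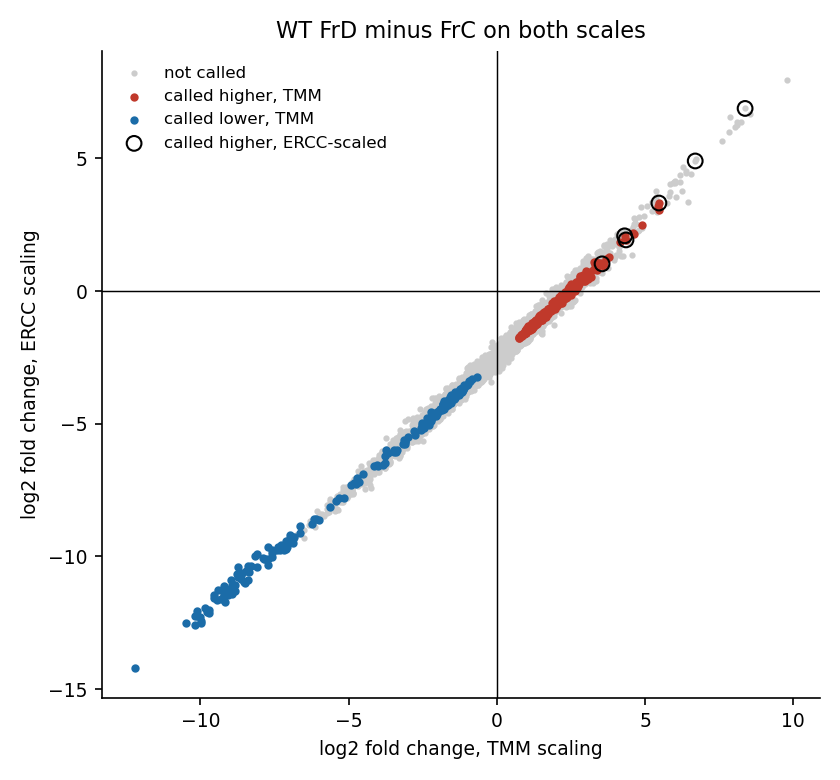
Log2 fold change of each of 10246 tested genes, FrD minus FrC, with TMM scaling on the horizontal axis and ERCC scaling on the vertical axis. Red and blue points were called higher or lower with TMM scaling; rings mark the 6 genes called higher with ERCC scaling. The cloud runs parallel to the diagonal with its median gene at 0.08 on one axis and -2.44 on the other, so 211 of 276 red points lie below 0 on the vertical axis.

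Markers of other marrow cells were looked at beside these results. For granulocytes and monocytes, 9 of 18 genes were tested and none was called by edgeR or voom, but all 9 were higher in FrD at an unadjusted p under 0.05 and 9 were called higher by DESeq2, with a median of 7.84. Without mouse 3, 10 were tested, 5 were above 0 and 5 below, the median was -0.32 and edgeR called none. The summed level was 65.9 to 844 CPM in FrC and 76.0 to 115900 CPM in FrD; Elane and Mpo, which define early granulocytes, stayed at or under 4.00 CPM. Lyz2, lysozyme of monocytes and neutrophils, was at 2356, 8368, 2466, 1143 and 21.1 CPM in FrD and at 14.7 to 744 CPM in FrC, so it was not a feature of mouse 3 alone. Of 8 plasmacytoid dendritic cell markers, 6 were tested and Cox6a2 rose; the summed list was at 231 to 426 CPM in FrC and at 692, 766, 740, 1127 and 235 CPM in FrD, and Siglech, a defining gene, was at 96.1, 69.4, 101, 319 and 0.0447 CPM in FrD. The T-cell list (9 of 10 genes in the table) summed to 107 to 203 CPM in FrC and 7.07 to 144 CPM in FrD. Most of the sum in FrC and in FrD of mice 2, 6 and 7 was Lck, which B-cell precursors also express. In FrD of mouse 3 Cd4 was at 79.8 CPM and Lck at 62.7 CPM. In FrD of mouse 1 Cd3g was at 12.1 CPM, Cd4 at 4.98 CPM and Lck at 0.0837 CPM. Cd3e was at 0 in 9 of 10 libraries. Cd5 had no count in FrD, and its reads were at least 160.8-fold lower by the floor used for Phlda3, for the counting of reads only. For NK cells the sum was 3.70 to 51.2 CPM in FrC and 0.418 to 262 CPM in FrD. Prf1 was at 0 in 9 of 10 libraries, but other members were high in FrD of mice 3 and 6. Mouse 3 had Klrk1 at 169 CPM and Nkg7 at 92.5 CPM. Mouse 6 had Ncr1 at 70.5 CPM, Klrb1c at 50.9 CPM and Nkg7 at 42.2 CPM. For the plasma cell list the sum was 1086 to 10010 CPM in FrC, highest in mouse 6, and 1566 to 1955 CPM in FrD. Mzb1 alone was at 655 to 1232 CPM in all 10 libraries. Jchain was at 8245 and 1561 CPM in FrC of mice 6 and 7 and at 1.70 to 18.6 CPM in the other libraries. Megakaryocyte, stromal, and basophil, mast and eosinophil lists summed to at most 102 CPM in any library. The part of these cells in the results above was not tested, beyond the counts without mouse 3.

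The same step in the P198A chimeras could be resolved for few genes. Of 10182 tested genes 2 were called higher (0.0196%) and none lower (edgeR with mouse as a block; 1100 at an unadjusted p under 0.05). The first was Cd2, at 11.8, 8.74, 5.86, 13.0 and 0.972 CPM in FrC of mutant mice 4, 5, 8, 9 and 10 and at 236, 214, 155, 140.4 and 120.2 CPM in FrD (4.65 ± 0.65, edgeR adjusted p = 0.0161); the second was Apoc2. In the mutant, the FrC libraries of mice 5, 9 and 10 had 22.6%, 56.8% and 29.4% of detected genes at 1 to 9 counts.

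WT calls mostly kept their sign there. Of the 457 WT calls that could be tested in the mutant, 410 (89.7%) had the same sign. They were 248 of 275 called higher and 162 of 182 called lower. In the mutant itself 1 of the 457 was called. The same-sign share of all genes tested in both genotypes was not computed. The steps use separate mice. The medians were 1.71 in WT and 1.14 in the mutant for the genes called higher, and -2.42 and -1.43 for those called lower. These genes were chosen by their WT calls, so the smaller mutant medians do not measure a weaker step. Igll1 was at -3.32 ± 1.31 in the mutant and Vpreb1 at -3.69, both lower in FrD in 5 of 5 mice. FrC of mutant mouse 9 was extreme for both, at 19817 CPM of Igll1 against 1079 to 2407 CPM in the other mutant FrC libraries and at 17581 CPM of Vpreb1 against 1037 to 2133 CPM, and its part in these values was not tested. Il2ra was at 2.89 and Dnajc7 at 2.79 ± 0.58. Rag1, at 3.67 in WT, was at 1.72 ± 0.68. Sec63 and Blnk had the opposite sign (-2.15 and -2.03), each with the same extreme FrC library of mouse 9, at 11488 and 16978 CPM.

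No gene's step differed between the genotypes by test. The interaction of genotype and step was called for 0 of 11280 genes (0%; edgeR, adjusted p under 0.05; 455 at an unadjusted p under 0.05), and for 0 without the mouse block, where 1288 were under that unadjusted p. Without the block and without the low-complexity libraries it was called for 0 of 12384, with 1156 under it. The lowest p belonged to Pycr1, Otulinl, Colq, Myc and Sh2d2a. Myc differed by 5.24 ± 1.32 (edgeR adjusted p = 0.903). It was at 248, 14.9, 231, 13.0 and 236 CPM in mutant FrC of mice 4, 5, 8, 9 and 10. Of the low-complexity FrC libraries, those of mice 5 and 9 were low for Myc and that of mouse 10 was not. In mutant FrD Myc was at 29.7, 9.51, 10.2, 14.9 and 21.9 CPM. The mutant's spike-in ratio changed by -2.1, -3.74, -0.09, -5.15 and -0.70 in mice 4, 5, 8, 9 and 10 (-2.36 ± 2.1, SD, n = 5), lower in 5 of 5 mice. The difference from the WT step was -0.12 (exact permutation p = 0.921). The largest falls, -3.74 and -5.15, came from mice 5 and 9, whose low-complexity FrC libraries held 896 and 125 ERCC counts in total. FrC of mouse 10 was of low complexity too. Whether the mutant ratio falls as in WT cannot be told from these values.

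**Figure D5:**
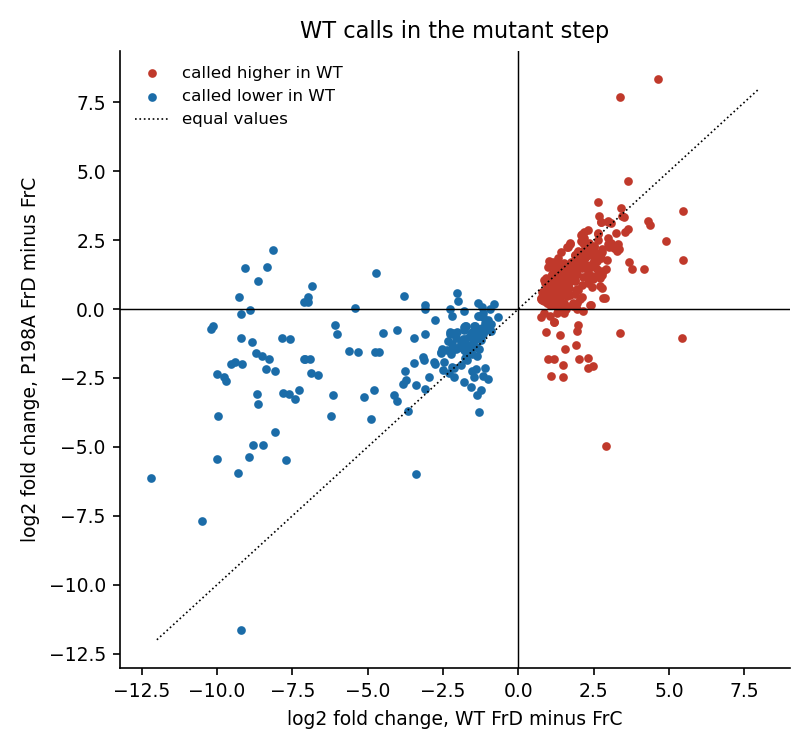
Log2 fold change from FrC to FrD in WT (horizontal) and P198A chimeras (vertical) for the 457 genes called in WT and tested in the mutant. Red genes were called higher in WT and blue lower; the dotted line marks equal values. Of these, 410 have the same sign on both axes.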

How the data were processed

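RNA of 100 sorted cells per library was amplified by Smart-seq2 from poly(A) tails, per the labels' protocols, with ERCC RNA in the lysis buffer. The authors deposited raw counts per gene; HISAT2 2.1.0, featureCounts 1.4.6 and the mm10 build are named in the submitters' processing notes. No source used here gives the annotation release or strand setting, so a gene and its antisense partner may share reads. The table holds 22050 rows, of which 92 are ERCC rows; 21728 of 21958 genes matched GENCODE M21 (GRCm38) and the 230 others held 0.0360% of the counts.

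Libraries were paired by mouse. Counts were tested with edgeR 4.0.16 (R 4.3.3): TMM factors over endogenous genes, or the ERCC total as library size; filterByExpr (minimum count 10, total 15); a robust quasi-likelihood fit on mouse and fraction; and Benjamini-Hochberg adjustment, with genes called at 0.05. "Per spike-in" values come from the ERCC-scaled fit. The pairing rests on the shared animal: the same-mouse correlations of deviations were 0.036, -0.026, -0.006, 0.034 and -0.149, and none was its library's highest. Single library values had two-sided exact permutation tests. On simulated counts for this comparison (10006 genes), log2 changes of 1, 2 and 4 were called for 1 of 67, 14 of 64 and 42 of 62 genes, and 3 of 9813 unchanged genes were called. The simulation built in a mouse effect shared by FrC and FrD and no library with RNA of other cells. The real counts differ in both respects, so these shares hold for the simulated settings only. Intervals and fold bounds cover counting error only, since reads carried no molecular identifiers.

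Genes were named by a rule: the 10 of lowest p in each direction, up to 4 called members of lowest p per list, a set of stage genes, and 5 each of lowest p for the ERCC-scaled rise and the genotype difference. The members, gene lists and rule were chosen with earlier results of these data known. Alternatives were other scalings, tools, filters and fits and the omission of each mouse; list counts without mouse 3 were added after seeing the data. Promoters came from RefSeq (8137 of 10246 tested genes matched by symbol). Immunoglobulin constant genes and protein sequences were not analysed here.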

Additional observations from a re-analysis of the deposited data

Results flagged for a closer look

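In 20 of 106 groups of 5 libraries examined (49 genes in FrC and FrD, and library measures), 1 library lay apart from the other 4 by Dixon's 95% criterion, where chance flags about 1 in 20. Of these, 12 were FrD of mouse 3, 4 were other FrD libraries and 4 were FrC libraries.

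FrD of mouse 3 stood high for the share of counts in the 50 highest genes (25.26%) and the share of detected genes with 1 to 9 counts (26.7%). It was also high for Btg1 (1781 CPM), Cox6a2 (220.2 CPM), Spn (147 CPM), Kit (23.6 CPM), Mki67 (2958 CPM), Spib (1769 CPM), Slc39a7 (295 CPM), Col5a3 (439 CPM) and Colq (0.227 CPM), and low for Rag2 (14.8 CPM). The part of its granulocyte and erythroid RNA in these values was not tested.

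Elsewhere in FrD, Dnajc7 was high in mouse 7 (3141 CPM), Myc in mouse 2 (15.5 CPM), Dntt in mouse 6 (80.3 CPM) and Enpep in mouse 2 (75.1 CPM). In FrC, Kit (15.5 CPM) and Cd74 (1527 CPM) were high in mouse 6, and Bach2 (632 CPM) and Fn1 (7.02 CPM) in mouse 7.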

How the results depend on the processing

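The counts of calls depended on the libraries and on the scaling. The mouse block gave 276 genes higher and 210 lower; with no replicate block there were 358 higher and 610 calls in either direction, with 481 of the 486 among them, and the block changed the call of no named gene. DESeq2 called 844 higher and 701 lower, limma voom 457 and 820, and the fit without a low-count filter 220 and 145. The voom fit moved the median gene to -0.22 and the higher calls to 35.8% of all calls, against 56.8%. Leaving out 1 mouse gave 54 to 819 genes higher and 23 to 622 lower: 54 and 23 without mouse 1, 55 and 47 without mouse 2, 819 and 622 without mouse 3, 70 and 53 without mouse 6, and 72 and 48 without mouse 7. Of the 84 named genes called, 51, 50, 44 and 45 lost their call without mouse 1, 2, 6 and 7, and none without mouse 3. ERCC scaling called 6 higher and 6826 lower, and without the 3 highest spike-ins 11 and 4193; with 1 mouse left out the ERCC-scaled fit called 1 to 20 genes higher and 5249 to 7691 lower. The spike-in ratio fell by 2.11 to 2.32 with 1 mouse left out, and was -2.23 without the pairing (exact permutation p = 0.00794, the smallest for 5 against 5). With 5 or fewer pairs, no two-sided exact paired permutation test can reach 0.05.

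Directions turned for 37 named genes with ERCC scaling, by its construction, since the median gene moved to -2.44. Log2 fold changes there were B4galt1 -0.63, Sec63 -0.24, Pafah1b3 -0.70, Ypel3 -0.050, Vpreb3 -0.92, Cd79b -0.55, Blnk -1.03, Lyn -1.10, Bcl10 -0.86, Xrcc6 -1.12, Polm -0.36, Cd44 -1.17, Tcf12 -0.74, Pou2af1 -1.36, H2afv -1.65, H3f3a -1.39, Fcrla -0.61, Cxcr4 -1.145, Mdm2 -1.18, Trp53inp1 -1.215, Irf4 -1.78, Cd79a -1.48, Rag2 -1.02, Spn -1.80, Kit -1.76, Il7r -1.48, Mki67 -1.91, Ikzf1 -2.35, Ikzf3 -2.10, Spib -0.68, Bach2 -1.59, Bcl6 -1.61, Cdkn1b -1.01, Ms4a1 -1.94, Cd74 -1.69, Slc39a7 -0.91 and Otulinl -1.44. Without the 3 highest spike-ins 30 were reversed: Pafah1b3 -0.065, Vpreb3 -0.17, Cd79b -0.083, Blnk -0.42, Lyn -0.47, Xrcc6 -0.37, Cd44 -0.59, Tcf12 -0.18, Pou2af1 -0.66, H2afv -0.91, H3f3a -0.98, Fcrla -0.15, Cxcr4 -0.41, Mdm2 -0.50, Trp53inp1 -0.73, Irf4 -1.08, Cd79a -1.23, Rag2 -0.86, Spn -0.52, Kit -0.20, Il7r -1.20, Mki67 -0.59, Ikzf1 -1.73, Ikzf3 -1.36, Bach2 -0.74, Bcl6 -1.50, Cdkn1b -0.47, Ms4a1 -1.50, Cd74 -1.46 and Otulinl -1.06. With voom, Spn -0.74, Kit -3.41 and Mki67 -0.48 were reversed. Kit was also reversed without mouse 1 (-0.88) and mouse 2 (-0.30). Without mouse 3, Spn -0.75, Kit -5.43 and Mki67 -0.86 were reversed. The cause was not tested for voom. With 1 mouse left out, Spn ran from -0.75 to 0.68, Mki67 from -0.86 to 0.68 and Kit from -5.43 to 2.105. Genes with few counts in FrD rest on depth: 77 of the 210 lower genes had under 10 counts there.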
